A study of Drosophila melanogaster with 12 samples.

Results

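Hand-dissected tracheae of adult female fruit flies were compared with whole adult females on the reads that fall in annotated exons. There were 4 libraries of each, which are 8 of the 12 libraries of the series, and they were chosen by their titles. The tracheal libraries held as much as could be collected of the tubes and air sacs of the head, thorax and abdomen. Each pooled the tissue of 3 females, aged 5 to 7 days and of strain w1118. Each whole-fly library held 3 intact females. The titles call all 8 libraries wildtype. The study's methods give strain and age for the dissected females only, and the sources leave out the age of the whole flies. The strain given for the dissected females, w1118, carries the white mutation, which leaves the eye without its pigment. RNA of the whole flies was diluted before cDNA synthesis so that all samples entered at a like amount, and the whole cDNA was then amplified by PCR from an oligo(dT) primer and a primer that finds the cap of the mRNA. A whole fly also contains its own tracheae, so that each difference is one between a tissue and the body that holds it.

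The tracheal system is the branched network of air-filled epithelial tubes that carries oxygen to the organs of an insect without the help of blood. Each tube is a single-layered epithelium that secretes a chitin-containing apical matrix into its lumen and stands on a basement membrane, and its fine end branches touch the muscle, gut, brain, ovary and fat body. The FGF receptor encoded by *btl* and the transcription factors encoded by *trh* and *vvl* are the defining genes of its cells in the embryo.

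The reads outside exons were 7.26% ± 1.19 of all gene reads in the adult tracheae and 5.18% ± 0.44 in the whole flies (SD, n = 4 each; exact two-sided permutation test, p = 0.0571), and they were left out here, together with the 3784 of 17697 genes for which the files give no exon. Exon reads per library ran from 4703048 to 13865281 in the adult tracheae and from 5082949 to 9379722 in the whole flies, so that 3 reads in a library stand for 0.216 to 0.638 CPM (counts scaled to a like total per library) in the adult tracheae and lower levels were not resolved. The labels of the groups were checked against the genes of the tracheal epithelium, since each file also carries a short internal code that could be read as that of another group. Of 11 such genes tested, 8 were higher in the libraries titled adult trachea than in those titled whole fly and 0 lower, which larval tracheae could give as well. The yolk protein gene *Yp1*, which adult females express, was at 10435 to 37746 RPKM in the adult trachea libraries, against 0.904 to 3.09 RPKM in the 4 larval trachea libraries. Of 17 genes of the male reproductive tract, none passed the minimum of 10 reads in at least 2 libraries. The tracheal libraries differed more from one another than the flies did. The median correlation of log2 CPM, scaled by the TMM size factors, with the whole-fly libraries was 0.530 in adult trachea replicate 3 and 0.797 in replicate 4, and the 20 highest genes took 19.3 to 51.3% of the exon reads in the adult tracheae and 15.1 to 15.7% in the flies.

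There were 9900 genes that reached 10 exon reads in 2 or more libraries, and 2323 of them, or 23.5%, were called at an adjusted p under 0.05 (edgeR's quasi-likelihood test, Benjamini-Hochberg) and a fold change above 1.5. Higher in the adult tracheae were 1594 (16.1%) and lower 729 (7.36%). These counts depended on single libraries: without adult trachea replicate 4 there were 3286 calls, 1923 higher and 1363 lower, and without whole-fly replicate 2 there were 1271, 945 higher and 326 lower. Without adult trachea replicates 3 and 4, the libraries farthest from and nearest to the flies, 1245 (13.2%) were higher and 1283 (13.7%) lower. The share of the calls that were higher was 68.6%, but 53.9% with the correction for exon length described next. It was 58.5% without adult trachea replicate 4 and 49.2% without replicates 3 and 4. When log2(RPKM + 0.1) was tested with limma it was 37.0%, on values without the TMM size factors of the main fit. The median log2 fold change over all genes was -0.37 in that limma test and 0.14 in the main fit. A call is termed steady here where the gene was called in the same direction in each of the 8 fits that left out 1 library and also in the fit corrected for exon length. There were 964 steady calls (9.74% of the genes tested), 710 higher (7.17%) and 254 lower (2.57%), and the genes and gene groups below are described mainly by them. Each p measures the spread between these libraries, and in bulk RNA fewer cells of a type and less RNA per cell cannot be told apart. Where a value is in RPKM, it is exon reads scaled to the length of the exons and to all gene reads of the library, in the order of the replicates, and a log2 fold change is that of adult tracheae over whole flies. RPKM leaves out the TMM size factors of the test, which were 0.597 to 1.11 in the adult tracheae and 1.13 to 1.22 in the flies. Groups that overlap in RPKM can therefore be apart in the test.

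Relative to the mean of the 8 libraries, the level of a gene went with its exon length differently in the tracheae and in the flies. For each library, the deviation of a gene's log2 CPM from the mean of the 8 libraries was set against the log10 of its exon length. Per unit of log10 length, the deviation changed by 0.74, 1.09, 1.85 and -0.18 in the adult tracheae and by -1.22, -0.86, -0.75 and -0.65 in the whole flies. As the deviations are from a mean over both groups, the slopes show a difference between groups and not the trend within either. All 4 tracheal slopes lay above all 4 whole-fly slopes, and the difference of the means was 1.74 (exact two-sided permutation test, p = 0.0286, which is as low as this design can go, and adjusted p = 0.0857 over 3 such tests). It was 1.46 among the genes with a mean of at least 100 exon reads and 1.42 without adult trachea replicate 3. The length of the gene that the median exon read belonged to was 1588, 1618, 1248 and 1611 bases in the adult tracheae and 1315, 1358, 1356 and 1349 bases in the whole flies. These overlapped through adult trachea replicate 3 (exact two-sided permutation test, p = 0.143), the library in which 20 genes took 51.3% of the reads, and without the 20 highest genes its value was 1648 bases.

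**Figure D1:**
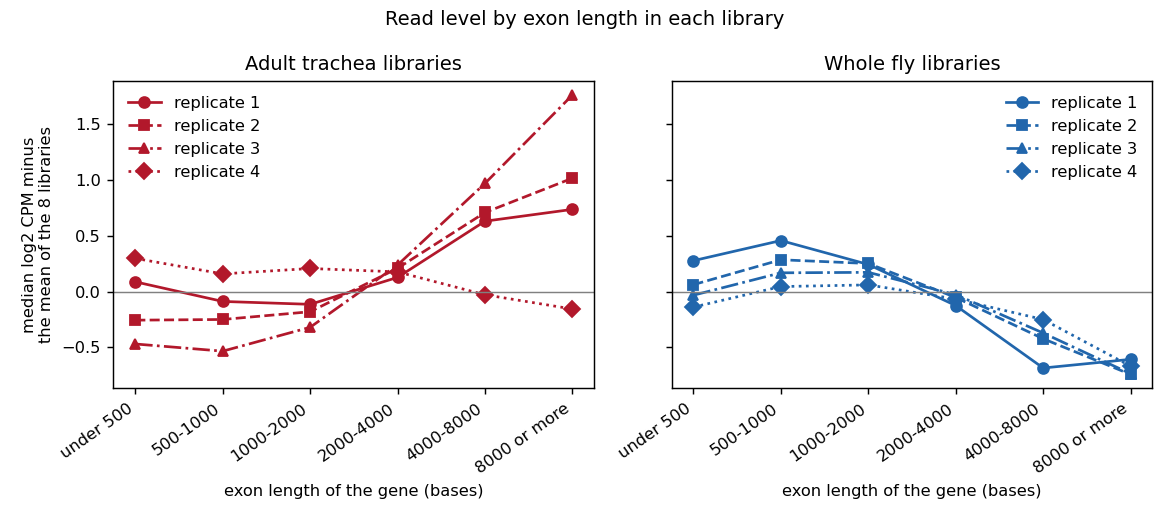
Median deviation of log2 CPM from the mean of the 8 libraries (vertical axis) in 6 classes of exon length in bases (horizontal axis), 1 line per library, adult tracheae in the left panel and whole flies in the right. In the class of 8000 bases or more, adult trachea replicate 3 stands at 1.76 and replicate 4 at -0.16, while the whole flies lie between -0.74 and -0.61.

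The calls followed the same slope. Of the genes with 8000 or more bases of exon, 38.6% were called higher in the adult tracheae and 1.06% lower, and of those with 500 to 1000 bases 10.7% were called higher and 14.0% lower. The median log2 fold change was 1.79 in the longest class and -0.40 in the class of 500 to 1000 bases, against 0.14 over all genes tested. Genes under 500 bases did not continue the trend, with 23% higher and 9.46% lower. When each library's own trend of level on length was taken up as an offset, 2264 genes were called, 1220 higher (12.3%) and 1044 lower (10.5%), and the median log2 fold change over all genes moved to -0.10. The longest class then had 12.5% higher and 17.8% lower. Of the 2323 calls, 1739 stayed in the same direction and 0 turned round. Lost were 476 higher calls, with a median of 5454 bases of exon, and 108 lower calls, with 1033. Gained were 423 lower calls, with a median of 4337 bases, and 102 higher calls, with 1092. The offset also takes away any difference between the tissues that goes with length, and the origin of the slope was not tested.

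**Figure D2:**
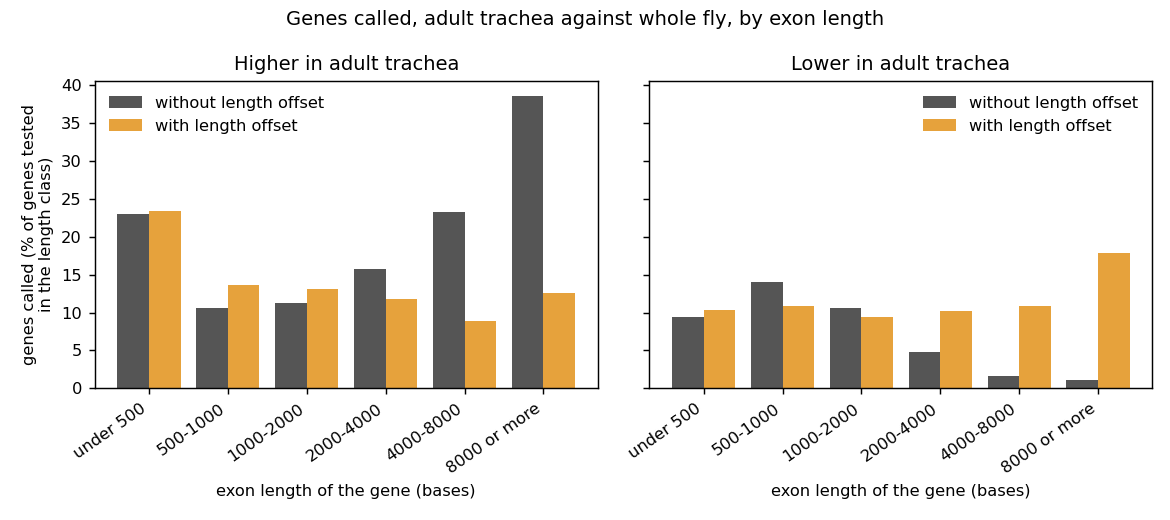
Genes called higher (left) and lower (right) in adult tracheae, as a percentage of the genes tested in each class of exon length in bases, without and with the offset for exon length. Without it the higher calls reach 38.6% in the longest class, and with it 12.5%.

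Among the genes with a mean of at least 10 RPKM in the adult tracheae whose higher call was lost with the offset, those with the largest folds were *Paip2*, which encodes a repressor of translation that binds poly(A)-binding protein, *emc*, a helix-loop-helix inhibitor of transcription, *Cp190*, an insulator protein of chromatin, and *Hsp70Ab*, an inducible chaperone. For *Paip2* the level was 18, 52.2, 15.3 and 4.3 RPKM in the adult tracheae and 6.81, 1.34, 0 and 0.18 RPKM in the whole flies (log2 fold change 3.82, SE 1.22, adjusted p = 0.0438), and with the offset the log2 fold change was 3.82 with adjusted p = 0.0503. *emc* and *Hsp70Ab*, with 2049 and 2375 bases of exon, missed the threshold as narrowly (adjusted p = 0.0505 and adjusted p = 0.0512), and in *Cp190*, with 4293 bases, the log2 fold change was 2.30 with the offset and 3.37 without it. *Hsp70Ab* is one of several near-identical copies whose reads cannot be split with certainty. In the longest genes the value itself moved. The muscle titin gene *sls*, with 58996 bases of exon, was at 0.897, 1.61, 2.91 and 1.55 RPKM in the adult tracheae and 0.587, 0.674, 0.519 and 0.536 RPKM in the whole flies, with a log2 fold change of 2.24 (adjusted p = 0.00811) that turned to -0.72 with the offset (adjusted p = 0.24). In *dpy*, which encodes a giant apical matrix protein and has 71820 bases of exon, a log2 fold change of 4.41 became 1.07 (adjusted p = 0.00719 and adjusted p = 0.248). *Akt1*, the kinase of insulin signalling, was not called (log2 fold change -0.62, adjusted p = 0.154) and was called lower with the offset (log2 fold change -1.61, adjusted p = 0.0080). At the same minimum of 10 RPKM in the higher group, the lower calls gained with the offset that had the largest folds were *yem*, *tum*, *Orc3* and *CG14036*. Those gained as higher were led by *ETH*, the ecdysis triggering hormone gene, at 30.7, 27, 3.28 and 5.91 RPKM in the adult tracheae and 2.21, 5.09, 6.09 and 0.975 RPKM in the whole flies, which overlapped. The lost lower calls with the largest folds were *CG11211*, *CG33306*, the trypsin gene *zetaTry* and *CG8661*, each with reads in 1 or 2 of the tracheal libraries only.

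Of the genes that define tracheal cells, *trh*, *vvl* and *btl* were higher with and without the offset. In the list of 10 transcription factors of tracheal fate, 4 were higher (40%, against 16.1% of all genes) and 6 were not called. With the offset 3 of them were higher. Of the transcription factors of tracheal fate, *trh* (chromosome 3L from 366524 to 392633) was at 3.54, 1.88, 2.59 and 1.29 RPKM in the adult tracheae with 0 exon reads in every whole-fly library. Against a floor of 3 reads over the group this is at least 159-fold higher (adjusted p = 0.00208). The POU-domain factor gene *vvl* was at 9.48, 8.2, 8.42 and 6.38 RPKM in the adult tracheae and 1.67, 1.54, 1.51 and 2.12 RPKM in the whole flies (log2 fold change 2.83, SE 0.41, adjusted p = 0.0017), with no overlap and a tight spread in both groups. The homeodomain factor gene *hth* was the third steady gene of that list of 10 (log2 fold change 5.39, adjusted p = 0.00192). The FGF receptor gene *btl* was at 2.35, 5.2, 6.59 and 3.55 RPKM in the adult tracheae and 0, 0.459, 0.175 and 0.788 RPKM in the whole flies (log2 fold change 4.25, SE 0.96, adjusted p = 0.0115). The lowest tracheal value was above the highest whole-fly value. The gene of its adaptor protein, *stumps*, was also higher (log2 fold change 5.66, adjusted p = 0.00303). Of 11 genes of the FGF and PVF ligands and receptors 8 were higher and 0 lower, 2 of them steady (72.7% higher and 18.2% steady, against 16.1% and 7.17% of all genes), and with the length offset 5 were higher.

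Some genes of the apical side of the tube were higher too. Of 9 zona pellucida genes of the apical matrix 3 were higher and 0 lower, and 1 of them was steady, the same number that was called with the offset. The CD36-like scavenger receptor gene *emp* was at 46.2, 90.5, 50.7 and 43.5 RPKM in the adult tracheae and 12.3, 13.2, 8.66 and 13.9 RPKM in the whole flies (log2 fold change 2.76, SE 0.33, adjusted p = 0.000739), and its log2 fold change was 2.05 with the length offset. The zona pellucida domain gene *pio*, whose product lines the lumen, was at 8.92, 7.53, 11.1 and 4.57 RPKM in the adult tracheae and 0.978, 0.534, 1.39 and 2.4 RPKM in the whole flies (log2 fold change 3.26, SE 0.62, adjusted p = 0.00549). Both were steady and without overlap. The steady calls among the 11 tracheal epithelium genes were *btl*, *emp*, *pio*, *trh* and *vvl*, and the higher calls of the list numbered 6 to 8 when 1 library was left out and 7 without adult trachea replicates 3 and 4. The chitin deacetylase genes *serp* and *verm*, which shape the luminal matrix of the embryo's tubes, were not called. Their levels were 7.66, 6.61, 10.9 and 4.6 RPKM in the adult tracheae and 4.88, 0.956, 2.9 and 9.2 RPKM in the whole flies for *serp* (log2 fold change 1.40, adjusted p = 0.151) and 7.39, 5.69, 7.14 and 1.53 RPKM in the adult tracheae and 1.02, 1.5, 4.7 and 5.05 RPKM in the whole flies for *verm* (log2 fold change 1.49, adjusted p = 0.159), and in both genes the groups overlapped. Of 14 genes of chitin synthesis and assembly 1 was called, the chitin-binding protein gene *Gasp*, and its call was not steady.

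**Figure D3:**
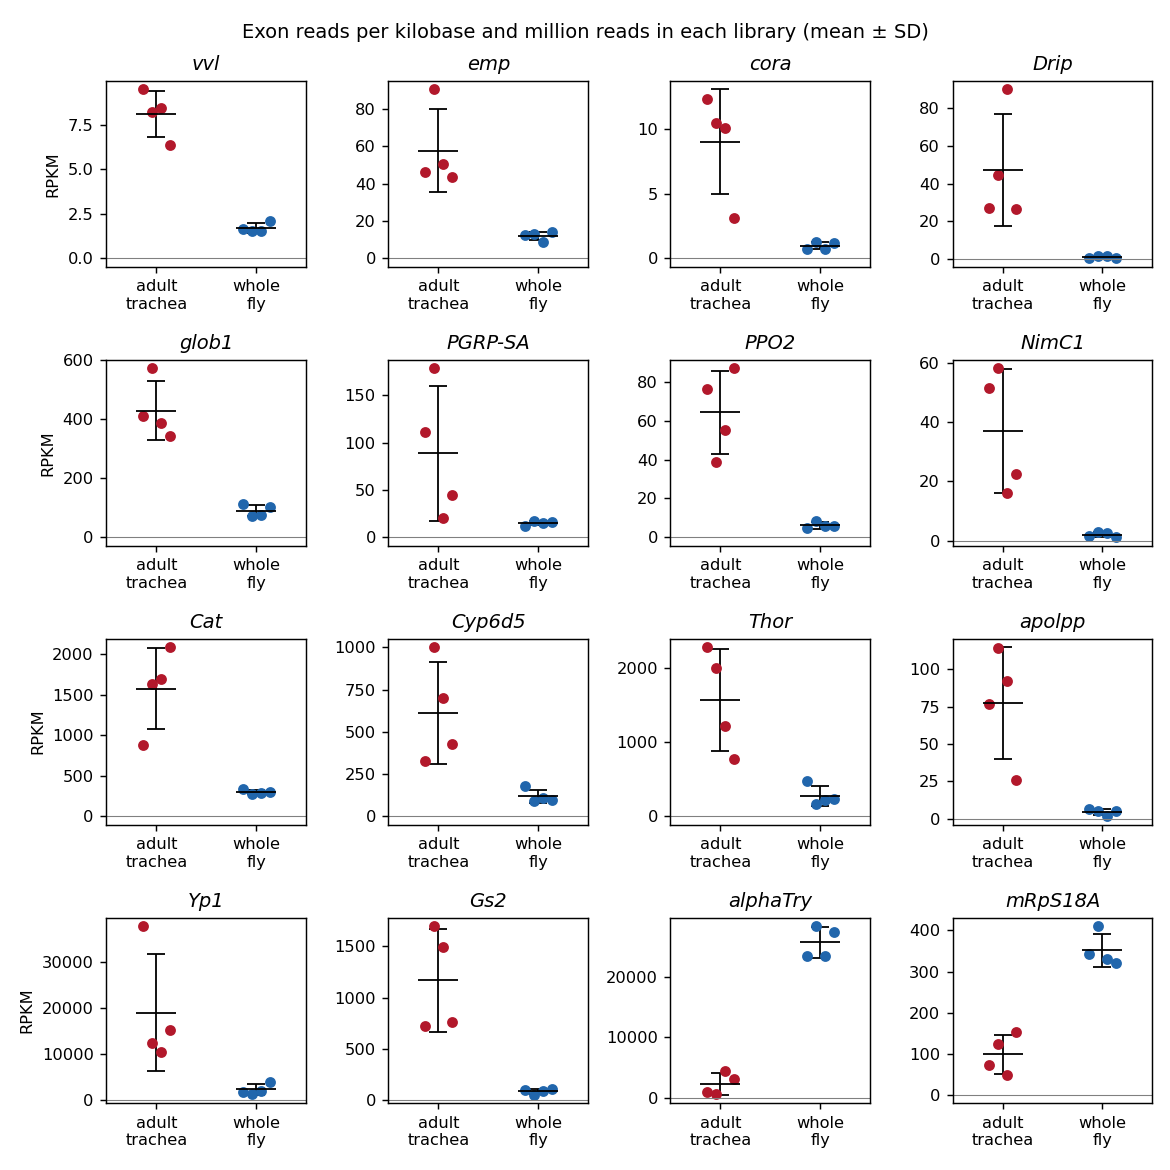
RPKM (vertical axis, from 0) of 16 genes in each library, adult tracheae in red on the left and whole flies in blue on the right of each panel, with the mean and SD over 4 libraries as bars. In 14 panels the tracheae are higher, and in *alphaTry* and *mRpS18A* they are lower, and no panel has overlapping groups.

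Epithelial junctions and the basement membrane gave steady increases for a minority of their genes. Septate junctions seal the spaces between epithelial cells, and *cora*, a cytoskeletal linker in them, was at 12.4, 10.5, 10.1 and 3.13 RPKM in the adult tracheae and 0.736, 1.26, 0.76 and 1.19 RPKM in the whole flies (log2 fold change 3.80, SE 0.54, adjusted p = 0.00167). Replicate 4 was the lowest of the tracheae and still above every whole fly. The sodium pump subunit gene *nrv2* was likewise steady (log2 fold change 2.89, adjusted p = 0.0105). Of 20 septate junction genes 7 were higher and 1 lower, 2 of them steady, and with the offset 3 were higher and 0 lower. Without the offset 35% were thus higher and 10% steadily so, against 16.1% and 7.17% of all genes. Genes of cell polarity and E-cadherin adhesion had shares close to those of all genes (20% higher and 6.67% steady). Of 15 such genes 3 were higher and 0 lower, with a median exon length of 6400 bases. With the offset this became 1 higher and 2 lower, and their median log2 fold change went to -0.17 with the offset, against 1.47 without it. The steady one was *alpha-Cat*, the catenin that ties cadherin to actin (log2 fold change 3.46, adjusted p = 0.00809). In the basement membrane list 6 of 12 genes were higher and 0 lower (50% higher, against 16.1% of all genes). *LanB2* (laminin gamma), *Ppn* (papilin) and *SPARC* (a collagen-binding protein) were steady. *SPARC* was at 939.9, 232, 201 and 177 RPKM in the adult tracheae and 59.5, 59.6, 61.6 and 139 RPKM in the whole flies (log2 fold change 2.87, SE 0.62, adjusted p = 0.00948), with replicate 1 of the tracheae far above the others. *Ppn* was at 31.4, 27, 13.1 and 18.5 RPKM in the adult tracheae and 2.41, 2.36, 2.55 and 5.76 RPKM in the whole flies (log2 fold change 3.29, SE 0.41, adjusted p = 0.000812). The integrin alpha subunit gene *mew* and the metalloprotease inhibitor gene *Timp* were steady in their lists (log2 fold change 4.68, adjusted p = 0.0123, and log2 fold change 2.31, adjusted p = 0.00156). Of 13 genes of integrins and their partners 2 were higher (15.4%), which is close to the share of all genes. Of 12 metalloprotease genes 4 were higher (33.3%), and no other gene of either list was steady.

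Channels for water and the genes that respond to oxygen supply differed by single genes. *Drip*, a water-permeable aquaporin, was at 27.2, 44.5, 90 and 26.8 RPKM in the adult tracheae and 0.519, 1.86, 1.67 and 0.442 RPKM in the whole flies (log2 fold change 6.05, SE 0.75, adjusted p = 0.000844), but on gene reads, introns included, its log2 fold change was 1.13 (adjusted p = 0.0345). Its paralog *Prip* went the other way, with 48, 32.2, 13.7 and 73.3 RPKM in the adult tracheae and 103, 127, 129 and 161 RPKM in the whole flies (log2 fold change -1.19, SE 0.39, adjusted p = 0.0448), and this call stayed in 1 of the 8 fits that left out a library. *Eglp4*, of the group that also passes glycerol and urea, was steady and higher by less (log2 fold change 1.28, adjusted p = 0.0138). In the gap junction family the innexin genes *ogre* and *shakB* were steady increases (log2 fold change 2.65, adjusted p = 0.00648, and log2 fold change 6.50, adjusted p = 0.0107). The haemoglobin gene *glob1* was at 411, 572, 388 and 343 RPKM in the adult tracheae and 111, 73.3, 73.7 and 101 RPKM in the whole flies (log2 fold change 2.77, SE 0.31, adjusted p = 0.000618), without overlap. The other globin genes, *glob2* and *glob3*, had 0 reads in all libraries but adult trachea replicate 1, where *glob3* was at 0.522 RPKM. *scyl*, a target of the hypoxia factor that restrains TOR, was at 22.5, 44, 42 and 12.9 RPKM in the adult tracheae and 2.37, 2.53, 0.535 and 3.53 RPKM in the whole flies (log2 fold change 4.36, SE 0.66, adjusted p = 0.00204). The gene of that factor itself, *sima*, was called (log2 fold change 1.62, adjusted p = 0.0438), but not with the length offset (log2 fold change 0.28, adjusted p = 0.67). Of the 10 oxygen response genes tested 6 were higher and 0 lower, 2 of them steady and 4 with the offset. Without the offset 60% were higher, against 16.1% of all genes.

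Cuticle proteins of the Cpr family, which bind chitin, were tested in 25 of 70 cases, and 4 were higher and 0 lower. A share of 4 in 25 is close to the 16.1% of all genes. The steady one was *Cpr49Ae*, at 20.2, 8.7, 8.0 and 26.3 RPKM in the adult tracheae and 4.37, 2.82, 0.704 and 0.621 RPKM in the whole flies (log2 fold change 3.34, SE 0.79, adjusted p = 0.0137). *Cpr62Bb* reached higher levels, 31.8, 41.8, 302 and 195 RPKM in the adult tracheae and 11.4, 5.92, 30.5 and 36.7 RPKM in the whole flies, and its call held in 6 of 8 fits with a library left out (log2 fold change 3.50, adjusted p = 0.0173). The chitinase gene *Cht5* was at 9.63, 32, 25.1 and 14.4 RPKM in the adult tracheae and 1.48, 2.53, 0 and 2.34 RPKM in the whole flies (log2 fold change 4.21, SE 0.90, adjusted p = 0.00946), and it was the only one of 8 chitinase genes tested that was called. The imaginal disc growth factors are chitinase-like proteins that have no enzyme activity. All 6 of their genes were called higher and 5 were steady. *Idgf4* was at 369, 1251, 917 and 751 RPKM in the adult tracheae and 245, 252, 215 and 228 RPKM in the whole flies (log2 fold change 2.32, SE 0.36, adjusted p = 0.0022).

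Part of the genes for the recognition of microbes and for defence were higher as well, with 5 of 12, 8 of 15 and 9 of 21 called in the 3 lists below, against 16.1% of all genes. The peptidoglycan recognition proteins sense bacterial cell wall and feed the Toll and Imd pathways, or digest it. Of 12 genes 5 were higher and 2 lower, and all of the higher ones were steady (*PGRP-LC*, *PGRP-LF*, *PGRP-SA*, *PGRP-SB1* and *PGRP-SD*). *PGRP-SA*, the sensor of Gram-positive bacteria upstream of Toll, was at 112, 179, 20 and 44.7 RPKM in the adult tracheae and 11.8, 17.1, 15.6 and 15.9 RPKM in the whole flies (log2 fold change 2.94, SE 0.52, adjusted p = 0.00435), with replicates 1 and 2 well above replicates 3 and 4. The lower ones were *PGRP-SC1a* and *PGRP-SC1b*, amidases of the gut, with 0 exon reads in the adult tracheae and 12, 8.95, 0 and 30.4 RPKM in the whole flies for *PGRP-SC1a*, at least 62.5-fold lower (adjusted p = 0.0283). They are near-identical copies whose reads cannot be split with certainty, and neither was steady. Antimicrobial peptide genes were higher in 8 and lower in 0 of 15 cases, 3 higher without adult trachea replicate 2 and 9 without replicate 3, and the steady ones were *AttC* (an attacin), *Dro* (drosocin) and *Mtk* (metchnikowin). *Mtk* was at 651, 6407, 4.24 and 65.5 RPKM in the adult tracheae and 1.38, 16.6, 1.56 and 26.1 RPKM in the whole flies (log2 fold change 7.48, SE 1.84, adjusted p = 0.0163). Replicate 2 of the tracheae held most of it, and replicate 3, at 4.24 RPKM, lay among the flies. *AttC* was highest in the same library, with 408, 5780.2, 50.3 and 32.1 RPKM in the adult tracheae and 16.7, 14.1, 9.13 and 36.4 RPKM in the whole flies (log2 fold change 6.55, SE 1.47, adjusted p = 0.011). Of 21 genes of the Toll and Imd cascades 9 were higher and 0 lower. The steady ones were the NF-kappaB gene *Rel* and the protease genes *SPE*, *grass* and *modSP*, which work in that order from the end of the extracellular Toll cascade to its start (log2 fold change 2.06, adjusted p = 0.0107 for *SPE*). The call of *Rel* (log2 fold change 2.01, adjusted p = 0.00617) rests on reads that the files do not count as unique to it, and on uniquely mapped exon reads its log2 fold change was -0.50.

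The stress peptide *TotA*, an output of JAK-STAT signalling, followed the antimicrobial peptides in its spread, with 309.8, 1431, 22.7 and 200.1 RPKM in the adult tracheae and 35.8, 42.6, 35.3 and 54.3 RPKM in the whole flies (log2 fold change 3.80, SE 0.83, adjusted p = 0.0101). The transcription factor gene of the pathway, *Stat92E*, was more even, at 20.7, 34.8, 17.8 and 10.5 RPKM in the adult tracheae and 5.48, 4.2, 4.3 and 8.62 RPKM in the whole flies (log2 fold change 2.40, SE 0.41, adjusted p = 0.00367). Blood cell genes were higher too. Of 11 haemocyte markers 8 were higher and 0 lower (72.7% higher, against 16.1% of all genes). *Hml*, *NimB5*, *NimC1*, *NimC4* and *Sr-CI* were steady. *NimC1*, a phagocytosis receptor of plasmatocytes, was at 51.4, 58.1, 16 and 22.5 RPKM in the adult tracheae and 1.69, 2.77, 2.5 and 1.12 RPKM in the whole flies (log2 fold change 4.64, SE 0.49, adjusted p = 0.000612). *Hml* (hemolectin, a clotting protein made by haemocytes) was at 4.83, 10.3, 6.25 and 4.79 RPKM in the adult tracheae and 0.425, 0.542, 0.308 and 0.939 RPKM in the whole flies (log2 fold change 4.08, SE 0.45, adjusted p = 0.000619). The summed level of the haemocyte list was 122 to 242 RPKM in the adult tracheae and 29.2 to 44.7 RPKM in the whole flies, without overlap. The crystal cell factor gene *lz* had no reads in 7 of the 8 libraries. The part of the haemocytes in the levels of the defence genes was not tested.

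Melanization and tanning genes were higher in 8 and lower in 0 of 12 cases (66.7% higher, against 16.1% of all genes). Steady were *PPO1* and *PPO2*, the prophenoloxidases of crystal cells, the protease gene *MP1* and *ple*, tyrosine hydroxylase. *PPO2* was at 76.3, 39, 55.1 and 87.1 RPKM in the adult tracheae and 4.55, 8.52, 5.56 and 5.97 RPKM in the whole flies (log2 fold change 3.94, SE 0.40, adjusted p = 0.000572). *ple* was at 13.4, 91.5, 3.76 and 1.64 RPKM in the adult tracheae and 0, 0.505, 0 and 0.0483 RPKM in the whole flies (log2 fold change 7.62, SE 1.46, adjusted p = 0.00586). The serpins inhibit the proteases of both cascades. The serpin genes were higher in 7 and lower in 0 of 14 cases (50% higher, against 16.1% of all genes). *Spn28Dc*, *Spn43Ab*, *Spn77Ba* and *Spn88Eb* were steady. *Spn28Dc*, which restrains melanization after injury, was at 44.8, 69.1, 11.4 and 15.4 RPKM in the adult tracheae and 1.45, 1.19, 6.99 and 2.98 RPKM in the whole flies (log2 fold change 3.90, SE 0.69, adjusted p = 0.00443). Among 14 redox genes the catalase gene *Cat* was higher without overlap, with 885, 1629.9, 1697 and 2089 RPKM in the adult tracheae and 332, 270.4, 285 and 296 RPKM in the whole flies (log2 fold change 2.95, SE 0.32, adjusted p = 0.000612), and the immune-regulated catalase gene *Irc* was steady as well (log2 fold change 2.50, adjusted p = 0.00394). Of 15 heat shock protein genes 3 were higher and 3 lower (20% each, against 16.1% and 7.36% of all genes), and 3 were steady. The small heat shock gene *Hsp27* was lower, at 77.5, 89.7, 8.52 and 88.2 RPKM in the adult tracheae and 297, 347, 373 and 307 RPKM in the whole flies (log2 fold change -1.95, SE 0.48, adjusted p = 0.0166). The inducible chaperone genes *Hsp70Bbb* and *Hsp70Bc* had no exon reads in the whole flies and were at least 237-fold and at least 128-fold higher in the adult tracheae (adjusted p = 0.0152 and adjusted p = 0.0091), with the reads of these near-identical copies split as the authors' counting did. Only 1.26% and 11.5% of their exon reads were uniquely mapped. A further Hsp70 copy was called lower, though not steadily, so that the copies did not share a direction.

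**Figure D4:**
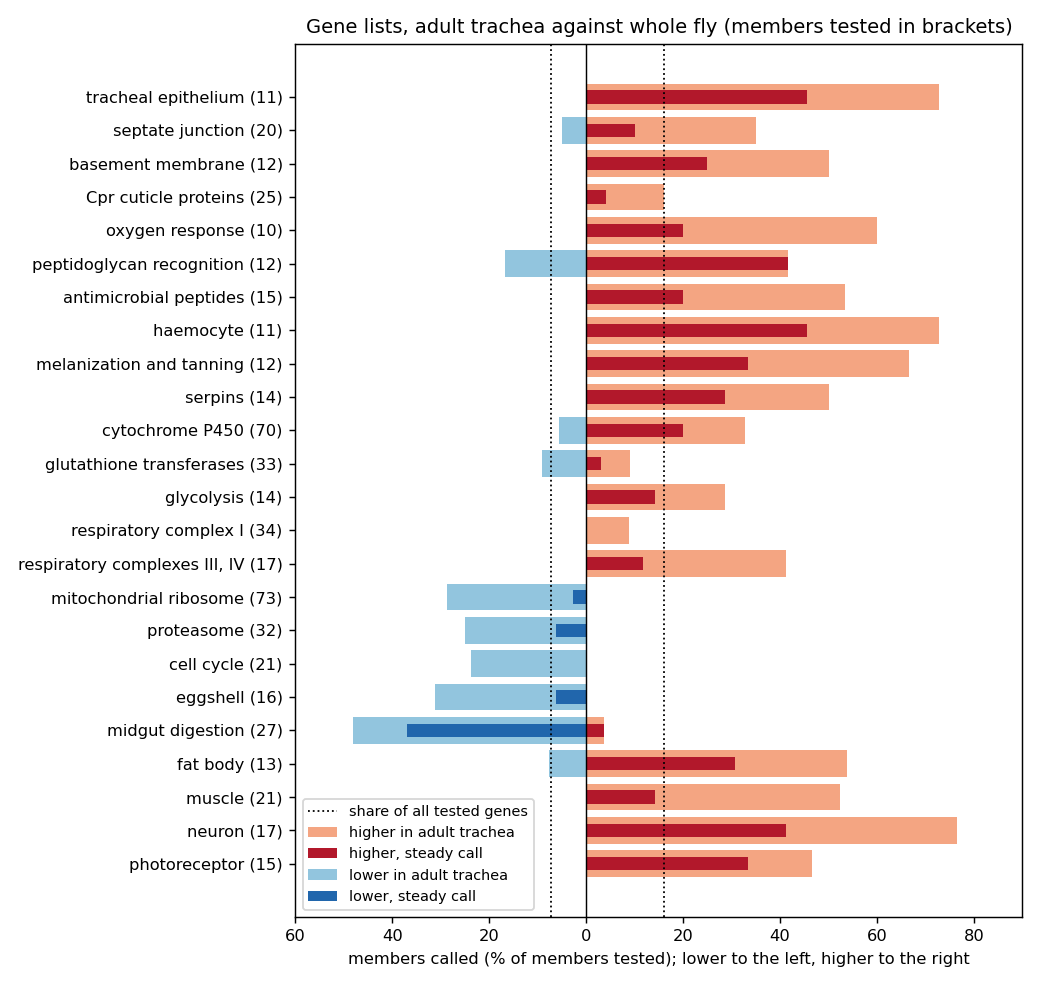
Members of 24 gene lists called lower (bars to the left) and higher (bars to the right) in adult tracheae than in whole flies, as a percentage of the members tested, with the number tested in brackets, the steady calls as narrow dark bars and the shares of all tested genes (7.36% lower, 16.1% higher) as dotted lines. The haemocyte and tracheal epithelium lists reach 8 of 11 and 8 of 11 higher, and midgut digestion 13 of 27 lower.

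Genes of sugar and fat metabolism were called at single steps. The glycolytic enzyme aldolase, *Ald*, was at 705, 610.3, 1031 and 649.8 RPKM in the adult tracheae and 203, 161, 267 and 334 RPKM in the whole flies (log2 fold change 2.27, SE 0.39, adjusted p = 0.00381), and *Hex-C*, a hexokinase, was the other steady gene among 14 of glycolysis (log2 fold change 1.46, adjusted p = 0.00996). Trehalose is the main sugar of insect blood. *Tps1*, which makes it, was at 417, 549.6, 194 and 286 RPKM in the adult tracheae and 147, 158, 149.7 and 207 RPKM in the whole flies (log2 fold change 1.59, SE 0.28, adjusted p = 0.00453), and the trehalose transporter gene *Tret1-1* was also steady (log2 fold change 1.82, adjusted p = 0.00485). The maltase gene *Mal-B1* was at 454, 11.5, 213 and 119.6 RPKM in the adult tracheae and 8.78, 6.25, 5.14 and 5.48 RPKM in the whole flies (log2 fold change 5.64, SE 0.96, adjusted p = 0.00367), with replicate 2 of the tracheae far below the other 3 but above the flies, while its relative *Mal-A7* was lower (log2 fold change -4.18, adjusted p = 0.0109). Of 15 genes of fat storage and mobilization 7 were higher and 0 lower (46.7% higher, against 16.1% of all genes). *Lsd-1*, the perilipin of lipid droplets, was at 172, 239.9, 60.7 and 118 RPKM in the adult tracheae and 75.3, 50.6, 44.5 and 47.8 RPKM in the whole flies (log2 fold change 1.86, SE 0.35, adjusted p = 0.00561). In RPKM the groups overlapped there by 1 library, adult trachea replicate 3 being below fly replicate 1. On the TMM-scaled counts of the test they did not overlap. *AkhR*, the receptor of adipokinetic hormone, was steady too (log2 fold change 1.88, adjusted p = 0.00864). The fatty acid synthase gene *FASN1*, with 8744 bases of exon, was at 60.9, 78.2, 59.3 and 60.5 RPKM in the adult tracheae and 19.9, 23.6, 20.5 and 21.9 RPKM in the whole flies (log2 fold change 2.12, SE 0.26, adjusted p = 0.000803). It kept its call in all 8 fits with a library left out and lost it with the length offset (log2 fold change 0.73, adjusted p = 0.0661).

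The cytochrome P450 family, the monooxygenases of hormone and toxin metabolism, had 14 steady increases among 70 genes tested (20%, against 7.17% of all genes). This is the largest number of any list fixed here, in one of the longer lists. By share several shorter lists stood higher, among them the haemocyte and tracheal epithelium lists (45.5% each). In all 23 were higher and 4 lower, and 24 and 4 with the offset. Its median exon length of 1803 bases is near that of all tested genes (2073 bases), and its median log2 fold change was 1.21 without and 1.27 with the offset. *Cyp4g1*, which makes cuticular hydrocarbons in oenocytes, was at 1521, 1114, 1487 and 2704 RPKM in the adult tracheae and 992, 644, 739 and 994 RPKM in the whole flies (log2 fold change 1.55, SE 0.33, adjusted p = 0.0091). *Cyp6d5* was at 326, 1002, 699.9 and 428 RPKM in the adult tracheae and 177, 90.6, 106 and 97.4 RPKM in the whole flies (log2 fold change 2.90, SE 0.42, adjusted p = 0.00178). None of the 4 lower genes was steady. Among them *Cyp4d1* was at 2.13, 2.35, 1.55 and 0 RPKM in the adult tracheae and 20.7, 18.6, 25.7 and 24.6 RPKM in the whole flies (log2 fold change -3.33, SE 0.92, adjusted p = 0.0252), a call that held in 5 of 8 fits with a library left out. Of 33 genes of the glutathione transferases, the other large detoxifying family, 3 were higher and 3 lower. That is 9.09% each, against 16.1% higher and 7.36% lower of all genes. *GstE2* was the steady one (log2 fold change 3.08, adjusted p = 0.00383).

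Respiration and protein turnover gave groups of short genes that went in different directions. Subunits of complexes III and IV of the respiratory chain were higher in 7 and lower in 0 of 17 cases, with *COX7A* and *UQCR-Q* steady. That is 41.2% higher, against 16.1% of all genes. *COX7A* was at 431, 484, 279 and 419 RPKM in the adult tracheae and 255, 183, 209.9 and 219.6 RPKM in the whole flies (log2 fold change 1.38, SE 0.25, adjusted p = 0.00502). Of 34 complex I genes 3 were called higher without and 9 with the length offset, none of them steady. The median exon length was 843 bases in complex I and 796 bases in complexes III and IV. The genes of the mitochondrial ribosome, which translates the mRNAs of that genome, are as short (median 783 bases) and were called in the other direction. Of 73 genes 0 were higher and 21 lower (28.8%, against 7.36% of all genes), with a median log2 fold change of -0.88. With the offset 13 were lower and the median was -0.60. Only *mRpL15* and *mRpS18A* were steady, since 2 genes were lower when replicate 2 of either group was left out and 36 when adult trachea replicate 4 was. *mRpS18A* was at 73.3, 123, 48 and 152 RPKM in the adult tracheae and 342, 411, 331 and 321 RPKM in the whole flies (log2 fold change -1.41, SE 0.29, adjusted p = 0.00782). Of 32 genes of the proteasome, which degrades tagged proteins, 0 were higher and 8 lower, and *Prosbeta4* and *Rpn12* were steady. Their number was 18 without adult trachea replicate 4 and 2 without replicate 1. *Prosbeta4* was at 129, 194, 54.9 and 252 RPKM in the adult tracheae and 506, 548, 518 and 459.8 RPKM in the whole flies (log2 fold change -1.29, SE 0.32, adjusted p = 0.0163). The ribosomal protein gene *RpS10b* was the one steady call among 80 ribosomal protein genes, at 76.1, 14.8, 13.1 and 16.3 RPKM in the adult tracheae and 243, 163, 469 and 169 RPKM in the whole flies (log2 fold change -2.54, SE 0.65, adjusted p = 0.0193).

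Clock and ecdysone response genes were called in different numbers with and without the length offset. Of 11 clock genes, with a median of 4739 bases of exon, 6 were higher and 0 lower without the offset, and 3 and 1 with it. The steady one was *vri*, the repressor in the second loop of the clock, at 19.9, 10.1, 13.6 and 5.57 RPKM in the adult tracheae and 1.45, 0.534, 0.852 and 0.155 RPKM in the whole flies (log2 fold change 4.65, SE 0.73, adjusted p = 0.00232). The blue light receptor gene *cry* was at 32.4, 56.6, 52.5 and 61.2 RPKM in the adult tracheae and 32.8, 31.3, 36.4 and 24.2 RPKM in the whole flies (log2 fold change 1.23, SE 0.32, adjusted p = 0.0193). In RPKM, which leaves out the TMM size factors, replicate 1 of the tracheae lay within the range of the flies. *tim* was at 10.8, 8.39, 5.3 and 1.92 RPKM in the adult tracheae and 0.0899, 1.7, 1.91 and 1.52 RPKM in the whole flies (log2 fold change 2.91, SE 0.78, adjusted p = 0.0228), a call that held in 5 of 8 fits with a library left out. *Clk* was also called (log2 fold change 6.03, adjusted p = 0.0152), and *cyc* was not (log2 fold change -0.88, adjusted p = 0.145). *per*, which pairs with *tim*, was at 0.688, 0.912, 0.0295 and 0.901 RPKM in the adult tracheae and 0.573, 0.0224, 0.40 and 0.122 RPKM in the whole flies and was not called (adjusted p = 0.418). All 3 higher calls among 12 ecdysone response genes, whose median exon length was 9633 bases, were lost with the offset, which gave 0 higher and 1 lower. They were *Eip93F*, *ftz-f1* and *Eip75B*.

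In the insulin pathway 7 of 16 genes were higher and 0 lower, and the steady ones were the ligand gene *Ilp6*, the gene of the ligand-binding inhibitor *ImpL2* and *Thor*, the translation repressor 4E-BP. *Thor* was at 2282, 1994, 1223 and 776 RPKM in the adult tracheae and 471, 157, 217 and 234 RPKM in the whole flies (log2 fold change 3.06, SE 0.48, adjusted p = 0.00232). *ImpL2* was at 40.1, 125, 36.1 and 19 RPKM in the adult tracheae and 13.8, 3.76, 1.83 and 4.83 RPKM in the whole flies (log2 fold change 3.58, SE 0.70, adjusted p = 0.00647). *Ilp6* was at 8.71, 13, 5.04 and 1.72 RPKM in the adult tracheae and 0, 0.545, 0 and 0 RPKM in the whole flies (log2 fold change 5.93, SE 1.30, adjusted p = 0.0103), so that a single fly library had reads of it. The ligand gene *Ilp2*, which is made by neurosecretory cells of the brain, was at 11.3, 138, 77.3 and 0.804 RPKM in the adult tracheae and 18.5, 12.1, 4.78 and 15.4 RPKM in the whole flies and was not called (log2 fold change 2.68, adjusted p = 0.0878). In the lists of Notch, BMP, Wingless and EGF receptor signalling, the steady genes were the BMP ligand and inhibitor genes *gbb* and *sog* (log2 fold change 2.35, adjusted p = 0.0125, and log2 fold change 4.44, adjusted p = 0.00232), *fng*, the glycosyltransferase of the Notch receptor (log2 fold change 3.42, adjusted p = 0.00412), and *pan*, the transcription factor of Wingless signalling (log2 fold change 4.41, adjusted p = 0.00223). At shares close to those of all genes (16.1% and 7.36%), the EGF receptor pathway had 2 higher and 1 lower calls among 13 genes. Notch signalling had 1 higher and 1 lower among 13, BMP signalling 5 and 0 among 11, and Wingless signalling 4 and 0 among 13. Steady increases were 7.69% in the Notch and Wingless lists, close to the 7.17% of all genes, 18.2% in the BMP list and 0 in the EGF receptor list.

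Markers of tissues that the tracheae touch were measured beside these, and the part they play in the values above was not tested. The 3 yolk protein genes, which fat body and follicle cells express in females, were all steady increases. *Yp1* was at 37746, 12337, 10435 and 15213 RPKM in the adult tracheae and 1817, 1312, 1963 and 4006 RPKM in the whole flies (log2 fold change 3.63, SE 0.52, adjusted p = 0.00169). Of 13 fat body markers 7 were higher and 1 lower, with a summed level of 696 to 1239 RPKM in the adult tracheae and 391 to 449.8 RPKM in the whole flies. The lipophorin gene *apolpp* was at 76.8, 114, 92.4 and 26 RPKM in the adult tracheae and 6.35, 4.82, 1.69 and 4.88 RPKM in the whole flies (log2 fold change 4.69, SE 0.60, adjusted p = 0.000938). All 3 calls among 5 oenocyte genes were steady increases (*Cyp4g1*, *eloF* and *FASN3*), with a summed level of 1759.9 to 3772 RPKM in the adult tracheae and 1153 to 1634 RPKM in the whole flies. Muscle markers were higher in 11 and lower in 0 of 21 cases. Higher were 52.4% of them and 53.8% of the fat body markers, against 16.1% of all genes. *TpnC4*, a troponin C of flight muscle, was at 38.7, 20.7, 73.5 and 66 RPKM in the adult tracheae and 10, 10.1, 11.6 and 6.93 RPKM in the whole flies (log2 fold change 3.00, SE 0.55, adjusted p = 0.00485). The summed muscle level overlapped between the groups, with 1603 to 4502 RPKM in the adult tracheae and 1296 to 1967 RPKM in the whole flies.

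Neurons and glia lie next to the tracheae of the head and ganglia. Of 17 neuronal genes, with a median exon length of 7098 bases, 13 were higher and 0 lower, 7 of them steady and 8 called with the offset. Thus 76.5% were higher and 41.2% steady, against 16.1% and 7.17% of all genes. Among all genes of 4000 to 8000 bases 23.3% were higher. The synaptic vesicle gene *Syt1* was at 1.89, 8.34, 14.7 and 1.8 RPKM in the adult tracheae and 0.372, 0.428, 0.265 and 0.467 RPKM in the whole flies (log2 fold change 4.84, SE 0.82, adjusted p = 0.0036). The summed neuronal level was 89.1 to 184 RPKM in the adult tracheae and 47.5 to 64.2 RPKM in the whole flies. The glial glutamine synthetase gene *Gs2* was at 724, 1695, 1491 and 760.2 RPKM in the adult tracheae and 102, 52.8, 92.4 and 107 RPKM in the whole flies (log2 fold change 4.29, SE 0.44, adjusted p = 0.000576), and 4 of 8 glial genes were higher. Among 15 photoreceptor genes 7 were higher and 0 lower. *Rh2*, the opsin of the ocelli, the simple eyes on top of the head, was at 10.3, 39.9, 699 and 112 RPKM in the adult tracheae and 8.96, 8.16, 8.06 and 0.27 RPKM in the whole flies (log2 fold change 5.96, SE 1.44, adjusted p = 0.0151), with replicate 3 of the tracheae standing far above the rest. Neuropeptide precursors were higher in 10 and lower in 0 of 23 cases, and *Capa*, *Hug*, *ITP*, *Nplp2*, *Pdf* and *sNPF* were steady. *Capa*, a peptide of neurosecretory cells of the ventral ganglion that acts on the Malpighian tubule, was at 92.9, 34.1, 62.8 and 220.1 RPKM in the adult tracheae and 2.67, 2.62, 8.21 and 14.6 RPKM in the whole flies (log2 fold change 4.39, SE 0.72, adjusted p = 0.00304). *Hug*, made in the subesophageal ganglion, was at 9.61, 46.1, 292 and 191 RPKM in the adult tracheae and 16.9, 2.74, 2.7 and 2.85 RPKM in the whole flies (log2 fold change 5.12, SE 1.14, adjusted p = 0.0107), with overlap between the lowest trachea and the highest fly. Of 27 voltage-gated and transmitter-gated channel genes, whose median exon length was 8036 bases, 14 were higher and 0 lower, 8 of them steady. With the offset 11 were higher. Higher without it were 51.9% of the channel, 50% of the glial, 46.7% of the photoreceptor and 43.5% of the neuropeptide genes. The share was 16.1% of all genes and 38.6% of those with 8000 or more bases of exon.

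Genes of digestion were lower in about as many cases as not, and those of the eggshell in fewer. Of 27 genes of midgut digestion 1 was higher and 13 were lower (48.1%, against 7.36% of all genes), and 10 of the lower ones were steady, or 37.0% against 2.57% of all genes. Without adult trachea replicates 3 and 4, 20 were lower. The trypsin gene *alphaTry* was at 1085, 694, 4569 and 3268 RPKM in the adult tracheae and 23369, 28281, 23416 and 27342 RPKM in the whole flies (log2 fold change -2.71, SE 0.62, adjusted p = 0.0118), and *thetaTry* at 3.53, 1.18, 0.447 and 0.294 RPKM in the adult tracheae and 207, 345, 240.3 and 159.7 RPKM in the whole flies (log2 fold change -7.07, SE 0.77, adjusted p = 0.000612). Every tracheal library held reads of both. *alphaTry* and *betaTry* are near-identical copies, so that their reads cannot be split with certainty. The summed level of the list was 1989 to 15279.6 RPKM in the adult tracheae and 47470.5 to 52892 RPKM in the whole flies. The higher one was *LysP*, a lysozyme gene of the salivary gland, at 138, 65.8, 860.2 and 137 RPKM in the adult tracheae and 38.9, 56.1, 30.3 and 32 RPKM in the whole flies (log2 fold change 3.80, SE 0.89, adjusted p = 0.0134). The vitelline membrane gene *Vm26Ab* was at 2.14, 0, 0 and 2.78 RPKM in the adult tracheae and 71.9, 52.2, 401 and 71.2 RPKM in the whole flies (log2 fold change -6.49, SE 1.18, adjusted p = 0.00485), and it was the steady one of 5 lower calls among 16 eggshell genes (31.2%), of which 2 were left without fly replicate 3. The summed eggshell level ran from 102 to 14912 RPKM in the adult tracheae and from 13608 to 34292 RPKM in the whole flies, and the groups overlapped. The chorion gene *Cp36* was abundant in 2 of the tracheal libraries, with 1925, 3.33, 21.7 and 3360.2 RPKM in the adult tracheae and 2262, 2974, 1496 and 2999 RPKM in the whole flies (log2 fold change -0.45, adjusted p = 0.819). Among 21 genes of the cell cycle there were 5 lower and 0 higher calls, none steady, and 0 were lower without fly replicate 2 or fly replicate 3 and 16 without adult trachea replicate 4. The germ line list was at 31.4 to 453 RPKM in the adult tracheae and 790.5 to 1075 RPKM in the whole flies, and its part in these calls was not tested. *CycA* was at 25.7, 53.6, 2.04 and 47.6 RPKM in the adult tracheae and 199, 185, 188 and 123 RPKM in the whole flies (log2 fold change -2.12, adjusted p = 0.0302). Without adult trachea replicates 3 and 4 together, 17 cell cycle genes and 9 eggshell genes were lower.

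The largest steady differences among genes with at least 10 RPKM in the higher group lay in genes that were all but silent in the other group. *alpha-Man-Ic*, an alpha-mannosidase gene, was at 10.7, 0.898, 47.8 and 3.38 RPKM in the adult tracheae and had no exon read in the 4 fly libraries, which makes it at least 459.8-fold higher (adjusted p = 0.00975). *NimC4*, whose product lets phagocytes engulf dying cells, was at 9.56, 0.966, 29.9 and 13.9 RPKM in the adult tracheae and had no exon read in the 4 fly libraries, which makes it at least 292-fold higher (adjusted p = 0.00575). *Dro* was at 184, 3824, 23.3 and 5.41 RPKM in the adult tracheae and 0, 2.42, 2.4 and 0.244 RPKM in the whole flies (log2 fold change 9.68, SE 2.02, adjusted p = 0.0082). The other increases among the 12 that the rule names were *CG12310*, *CG11413*, *IM18*, *CG42867*, *CG2157*, *ple*, *CG16820*, *CG13116* and *CG43085*. In the other direction *CG8562* had no exon reads in the adult tracheae and 111, 89.3, 126 and 103 RPKM in the whole flies, at least 1462-fold lower (adjusted p = 0.000142). *CG18404* was at 0.641, 0, 0 and 0.127 RPKM in the adult tracheae and 233, 150.1, 126 and 189 RPKM in the whole flies (3 against 2836 exon reads, a ratio of 949 with a 95% counting interval from 324 to 4602, adjusted p = 0.00018). The reads carry no molecular identifiers, so such bounds and intervals cover counting error only. The remaining decreases were *CG9682*, *CG8560*, *Jon66Ci*, *CG14205*, *CG43774*, *Jon44E*, *CG8299*, *CG31041*, *CG10725* and the odorant-binding protein gene *Obp19b*.

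The most abundant transcript of the tracheal libraries was that of *whe* (chromosome X from 21402339 to 21402772, 434 bases of exon), at 61717, 4737, 212090 and 24704 RPKM in the adult tracheae and 4293, 3505, 3326 and 4714 RPKM in the whole flies (log2 fold change 5.14, SE 1.06, adjusted p = 0.00797). *CG16826* ran in parallel, with 33317, 2158, 116902 and 12064 RPKM in the adult tracheae and 1869, 1367, 1442 and 1447 RPKM in the whole flies (log2 fold change 5.63, SE 1.12, adjusted p = 0.00682). Both were highest in replicate 3 of the tracheae and lowest in replicate 2, whose levels were near those of the flies. *lcs*, *CG45080* and *CG34212* showed the same library order, and all 5 were steady. The 3 yolk genes, *Nplp2* and *CG13947* completed the 10 highest of the tracheae. Of the 10 highest genes of the whole flies, *alphaTry*, *RpL41* and the germ line thioredoxin gene *dhd* were called lower in the adult tracheae and *Yp3* higher. *dhd* was at 1053, 1209, 73.7 and 2763 RPKM in the adult tracheae and 6304, 9295, 7882 and 6008 RPKM in the whole flies (log2 fold change -2.19, SE 0.65, adjusted p = 0.0335), and its call stayed in 2 of 8 fits with a library left out. *RpL23*, *Jon65Aiv*, *RpL27A*, *betaTry* and *Cp19*, also among the most abundant there, were not called.

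Counting exon reads in place of gene reads changed the call of few genes, but of some it turned the direction. On gene reads, 2538 of 10234 genes were called, 1714 higher (16.7%) and 824 lower (8.05%), or 24.8% in all. Of the 9900 genes tested on exon reads, 2239 were called by both in the same direction, 84 by exon reads only and 255 by gene reads only, and the median absolute difference between their log2 fold changes was 0.0597. In 200 genes it was above 1. *blot*, a gene of the neurotransmitter transporter family (chromosome 3L from 17396031 to 17421514), had 137 exon reads and 59079 intron reads over the 4 tracheal libraries, against 767 exon reads and 8444 intron reads over the whole flies. Its exons were at 2.62, 1.08, 0.131 and 0.502 RPKM in the adult tracheae and 4.59, 3.85, 6.78 and 10.2 RPKM in the whole flies (log2 fold change -2.07, adjusted p = 0.0709), while its gene reads were called higher in the tracheae (log2 fold change 2.41, adjusted p = 0.00295). *CG17684* also changed sign between the counts, with 11626 of its tracheal reads in introns. *Snap25*, *CG45781*, *CG45782* and *CG40178* were higher on gene reads and not called on exon reads, with 74.0 to 99.1% of their reads in introns in either group.

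In other genes the exon reads were the ones that differed. *Dop1R1*, a dopamine receptor gene, had 383 exon and 3589 intron reads in the adult tracheae and 1 exon and 2251 intron reads in the whole flies. On exon reads the ratio was 382 (95% counting interval 68.1 to 15115, adjusted p = 0.00301), and on gene reads the log2 fold change was 0.77 (adjusted p = 0.0662). *CG4678* had a log2 fold change of 4.78 on exon reads and -0.34 on gene reads (adjusted p = 0.0258 and adjusted p = 0.583), with 1223 intron reads and 22 exon reads in the whole flies. *Drip*, *trh*, *shakB* and *pan* were called on both counts with smaller differences on gene reads (log2 fold change 1.13, 5.57, 4.05 and 3.33), and *Clk* was not called there (log2 fold change 2.88, adjusted p = 0.105). The zinc finger gene *jim*, the BMP receptor gene *tkv*, the sodium channel gene *NaCP60E* and *hwt* were called higher on exon reads alone as well. The origin of the intron reads was not tested, and the files do not say whether the counting used strand.

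Exon reads also need not be unique to a gene, since many fly genes lie inside another. Of the 9900 genes tested, 82.0% had at least 90% of their exon reads counted as uniquely mapped and 523 (5.28%) had none. Among the genes named here 11 had none, *CG11413*, *CG12310*, *CG13116*, *Cyp4g1*, *Hex-C*, *IM18*, *LysP*, *Mtk*, *NimC4*, *Orc3* and *PGRP-SD*, and all 11 lie within the span of another gene, on the same strand as the host in 7 of them. *NimC4* lies within *nAChRalpha5*, a gene of a neuronal acetylcholine receptor subunit, and *Mtk* within *CG43729*. The values of the 11 genes rest wholly on reads that are not counted as unique to them, and those of *emc* nearly so. On uniquely mapped exon reads the steady calls of *Rel*, *Eglp4* (log2 fold change 0.94, adjusted p = 0.176), *Tret1-1* (log2 fold change 0.99, adjusted p = 0.0699), *MP1* (log2 fold change 0.88, adjusted p = 0.424), *Hug* (log2 fold change 3.61, adjusted p = 0.190) and *Ilp6* (log2 fold change 6.43, adjusted p = 0.0716) were lost, with 1.72 to 15.4% of their exon reads unique, and so were the calls of *CG33306*, *PGRP-SC1a* and *ftz-f1*, which were not steady. *Mal-B1*, *Cyp6d5*, *Spn43Ab*, *PPO1* and *Timp*, which are nested too and had 7.52 to 24.2% unique reads, kept their calls.

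**Figure D5:**
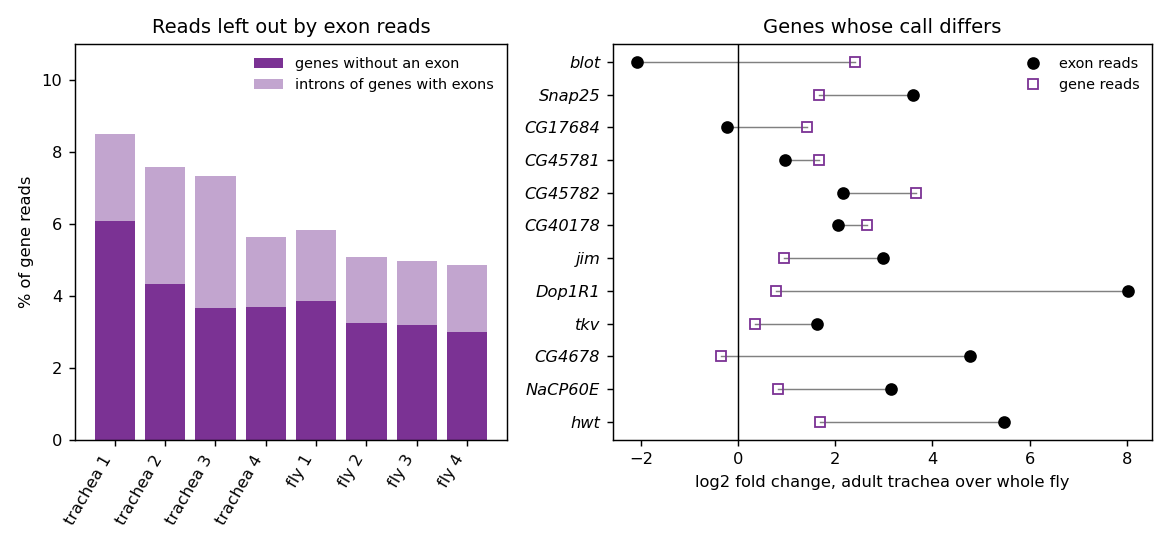
Left, reads that exon counting leaves out in each library, as a percentage of gene reads, split into genes without an exon and introns of genes with exons, adult tracheae first. Right, log2 fold change (adult trachea over whole fly) of 12 genes on exon reads (filled circles) and on gene reads (open squares), with *blot*, *CG17684* and *CG4678* on opposite sides of 0.

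Genes without an annotated exon took 3.66 to 6.07% of the gene reads in the adult tracheae and 3.01 to 3.86% in the whole flies. Of 255 that could be tested on gene reads, 33 were higher (12.9%) and 2 lower (0.784%). They were 187 noncoding RNA genes, 19 higher and 1 lower, 27 genes of the mitochondrial genome, 6 higher and 0 lower, and others. *COX1*, the mitochondrial cytochrome oxidase subunit, stood at 6554, 6183, 5788 and 4576 CPM in the adult tracheae and 4436, 3644, 3504 and 3530.3 in the whole flies (log2 fold change 1.10, adjusted p = 0.0182). *CR45054*, a noncoding RNA gene on chromosome 3R from 10083381 to 10090525, was at 18.9, 24.5, 24.4 and 1.85 CPM in the adult tracheae and 0.371, 0.101, 0.139 and 0 in the whole flies (log2 fold change 7.27, SE 1.14, adjusted p = 0.00248), with replicate 4 of the tracheae low but above the flies. The noncoding RNA gene called lower was *CR44192*, at 0, 7.15, 0 and 1.31 CPM in the adult tracheae and 53, 39.4, 54.4 and 94.6 in the whole flies (log2 fold change -4.68, adjusted p = 0.0142). The male-specific dosage compensation RNA *roX1* was at 2.53, 4.4, 1.47 and 2.08 CPM in the adult tracheae and 0, 0.304, 0.696 and 0 in the whole flies, and *roX2* at 0, 0, 0 and 1.15 in the adult tracheae and 1.48, 0, 9.05 and 0 in the whole flies, in groups that were both female. These are 13 to 32 reads of *roX1* per library in the adult tracheae and 0 to 5 in the whole flies (log2 fold change 3.64, adjusted p = 0.0847), and up to 65 reads of *roX2*, in fly replicate 3. Their origin was not tested.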

How the data were processed

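Per the labels and the study's methods, cDNA made with an oligo(dT) and a cap finder primer was amplified whole and sequenced on a NextSeq 500. The deposited files hold, for each library and gene, read counts (exon, gene, intron and unique reads) and RPKM and TPM values that the authors made in CLC Genomics Workbench on the Drosophila genome BDGP6. The counts are not normalized, and the authors' RPKM divides exon reads by exon length and by the gene reads of the library. TPM was not used. No source used here gives the strand setting of the counting.

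Here, total exon reads of 8 libraries were tested with edgeR 4.0.16 (TMM, quasi-likelihood F-test, Benjamini-Hochberg over the 9900 genes that reached 10 reads in 2 or more libraries, calls at FDR 0.05 and a 1.5-fold change, SE from the fold and F). The length offset was a lowess line of each library's log2 CPM deviation on log10 exon length. Alternatives were DESeq2 1.42.0, limma, RLE factors, other filters, gene or unique reads, 3 groups, a replicate block and libraries left out. Scripts were tested on simulated data. Depth per library was 4703048 to 13865281 exon reads. With 1 to 3 reads in a group, ratios carry 95% Clopper-Pearson counting intervals, and with 0 the fold is set against 3 reads over the group.

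The members, gene lists and tests were chosen with earlier results of these data known. Named were the 12 largest steady changes in each direction without overlap and with a mean of at least 10 RPKM in the higher group, up to 3 called members of each list and direction with the highest RPKM (steady ones first), the 10 genes with the highest mean in each group, the 6 called on exon reads alone and the 6 on gene reads alone with the most intron reads, the 4 largest changes of each direction lost or gained with the offset (at least 10 RPKM as above), and genes the study names, except for items not reported here. *Akt1*, *Cp36*, *Hml*, *ITP*, *Ilp2*, *LanB2*, *PGRP-LC*, *PGRP-LF*, *Pdf*, *Rel*, *Spn77Ba*, *glob2*, *glob3*, *lz*, *sNPF*, *serp*, *sls*, *verm* and the noncoding RNA genes were named after their values were seen. A cyclophilin gene that a name pattern had put among the P450 genes was taken out after its values were seen.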

Additional observations from a re-analysis of the deposited data

Results flagged for a closer look

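In groups of 4 libraries, the highest or lowest value was set apart from the other 3 by more than Dixon's 95% limit in 19 of 154 groups of RPKM values and in the read-weighted exon length of the adult tracheae, where chance gives about 1 in 20 groups. In the adult tracheae, replicate 2 stood above the rest in *Mtk* (6407 RPKM), *AttC* (5780.2 RPKM), *Dro* (3824 RPKM), *ple* (91.5 RPKM), *emp* (90.5 RPKM) and *FASN1* (78.2 RPKM). Replicate 3 stood above the rest in *LysP* (860.2 RPKM) and *Rh2* (699 RPKM) and below the rest in *Hsp27* (8.52 RPKM) and in the read-weighted exon length (3.10 on the log10 scale of bases). Replicate 1 stood above the rest in *SPARC* (939.9 RPKM) and *RpS10b* (76.1 RPKM). In the whole flies, replicate 1 stood above the rest in *CG16826* (1869 RPKM) and *Hug* (16.9 RPKM), replicate 2 in *Ilp6* (0.545 RPKM) and *ple* (0.505 RPKM), replicate 3 in *Vm26Ab* (401 RPKM) and replicate 4 in *SPARC* (139 RPKM) and *Ppn* (5.76 RPKM). Replicate 4 stood below the rest in *Rh2* (0.270 RPKM). In *AttC*, *Dro*, *Mtk* and *ple* the tracheal values therefore rest mainly on 1 library, although each call held when that library was left out. DESeq2 gave no adjusted p for *Dro* and *IM18* and so did not call them. It called 5 of the 15 antimicrobial peptide genes higher, against 8 in the main fit.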

How the results depend on the processing

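Set against 2323 calls (1594 higher and 729 lower), gene reads gave 2538 calls, DESeq2 3458, RLE factors 2444 and the length offset 2264. The count was 1165 (813 higher, 352 lower) with 1000 to 3000 bases of exon only, where fewer genes were tested, and 1271 to 3286 (945 to 1923 higher, 326 to 1363 lower) with 1 library left out. Leaving out adult trachea replicate 2 gave 1450 calls, fly replicate 3 gave 1302 and fly replicate 2 gave 1271. The lower calls were 1251 with DESeq2, 1283 without adult trachea replicates 3 and 4, 1849 with limma on log2(RPKM + 0.1), 2027 with limma on log2(RPKM + 1), and 1603, with 1053 higher, when the limma test at + 0.1 had no filter. They were 384 without adult trachea replicate 2, and 427, 332 and 477 without whole-fly replicates 1, 3 and 4. The cause of these shifts was not tested. The replicate block gave 1450 calls, 1023 higher and 427 lower. Same-numbered libraries had correlations of -0.051, 0.044, -0.014 and -0.093, and the other pairs ran from -0.068 to 0.105. So few pairs cannot show whether same-numbered libraries were handled together, and this was not tested.

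The slope difference was 1.42 to 2.10 with 1 library left out (exact permutation p = 0.0571 when the library left out was a whole fly) and 1.79 without adult trachea replicates 3 and 4 (p = 0.0667, the smallest possible there). The difference in read-weighted log10 exon length was 0.0395 to 0.0771 with 1 library left out, and 0.0496 (exact permutation p = 0.0286) without the 20 genes with the most reads. The difference in intron-read share was 1.67 to 2.62 percentage points with 1 library left out. With the length offset, *Src42A* (-0.10), *baz* (-0.37), *rhea* (-0.40), *ftz-f1* (-0.17) and *sls* (-0.72) changed the sign of the log2 fold change, and with gene reads *blot* (2.41), *CG17684* (1.42) and *CG4678* (-0.34) did, and with uniquely mapped exon reads *Rel* (-0.50). No other named gene reversed under the alternatives run. Levels under 3 reads were not resolved.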

Other observations

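Further gene families had few calls. Of 27 odorant-binding protein genes tested, 3 were higher and 3 lower in the adult tracheae than in the whole flies, and with the offset for exon length 3 and 1. Of 25 genes of Rab GTPases, the switches of vesicle traffic, 4 were higher and 2 lower, none steady. Of 22 genes of the vacuolar proton pump 3 were higher and 2 lower, and of 13 genes of the COPI and COPII coats 1 was higher and 0 lower. Each of these shares of higher calls is under or close to the 16.1% of all genes tested.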
